A study of Saccharomyces cerevisiae with 22 samples.

Results

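The autophagy genes described here were those whose symbol in the probe annotation is ATG followed by a number, taken as given or after updating to the current symbol. There were 34 of them among the 5449 genes measured. Sorted by the role of their products, 18 belonged to the core machinery that builds autophagosomes, 10 served selective autophagy and 6 had other roles. The class is a choice for ATG38, counted as core, and for ATG23 and ATG27, counted as other. A further 3 symbols of this form in the gene reference, ATG42, ATG44 and ATG45, had no probe set named for them and were not analysed here. Each of the 34 had 1 probe set, annotated as specific to its transcript. ATG6 and ATG24 are listed under their other names, VPS30 and SNX4, and are treated as partners.

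Strain CEN.PK113-1A of Saccharomyces cerevisiae, a haploid of mating type alpha, was kept at steady state in glucose-limited chemostats with 20.9, 2.8, 1.0, 0.5 or 0% oxygen in the feed gas. Total RNA was hybridised to Yeast Genome 2.0 arrays, 1 array per sample, and 22 arrays were used, 6 at 1.0% and 4 at each remaining level. Replicate 1 at 1.0% oxygen was not used here. All cultures had ergosterol and Tween 80 in the medium and grew at the same dilution rate, temperature and pH. Cultures at 2.8 and 20.9% oxygen had in addition received a small inoculum of exponentially growing cells when the feed started, meant to prevent oscillations, so this addition and these levels cannot be told apart. Per the study's methods there were 4 cultivations each at 0, 1.0 and 20.9% oxygen, but only 2 each at 0.5 and 2.8%, where both were sampled more than once. The 4 arrays at 0.5% and the 4 at 2.8% thus stand for 2 cultures each, some of the 6 at 1.0% also share a culture, and the labels do not say which. For these levels the p-values measure in part the spread between samples of 1 culture. All levels shared 1 variance per gene in the tests below, so this spread also enters the p-values of 0 against 20.9%. For replicates 2 and 4 at 2.8% oxygen the labels describe cells that were spun down directly, while all others were collected in cold phosphate buffer.

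Macroautophagy encloses part of the cytoplasm in a double membrane, the autophagosome, which fuses with the vacuole, where the contents are broken down and reused. The Atg1 kinase complex starts the process, a lipid kinase complex marks the site with phosphatidylinositol 3-phosphate, Atg9 vesicles and Atg2 supply membrane, and the ubiquitin-like protein Atg8 is joined to phosphatidylethanolamine on the growing sheet. In selective autophagy a receptor binds 1 kind of cargo, such as a mitochondrion, a peroxisome, part of the nucleus or the endoplasmic reticulum, and links it to Atg11 and Atg8. Yeast also runs the Cvt pathway (cytoplasm-to-vacuole targeting) with the same machinery in growing cells, delivering hydrolases to the vacuole.

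Levels are given as log2 intensities, so that a difference of 1 means a doubling, and were used as the authors normalised them. They measure RNA in whole cultures, in which fewer cells with a transcript and less of it per cell cannot be told apart. Changes between oxygen levels were tested with limma, a linear model fitted to all 5449 genes and all 22 arrays at once. A gene was called when its Benjamini-Hochberg adjusted p, corrected over all genes, was under 0.01. Anaerobic marker transcripts fitted the labels, with a mean log2 level over 5 genes between 12.20 and 12.54 in the samples at 0% oxygen and between 5.98 and 7.48 in all other samples. Replicate 4 at 2.8% and replicate 4 at 20.9% oxygen lay farther from their group means than the other arrays, with standard deviations over all genes of 0.32 and 0.34 against 0.08 to 0.22. The members moved with them. The mean over the 34 genes was 7.93 in replicate 4 at 2.8% and 8.31 to 8.36 in the remaining samples at that level, and it was 9.11 in replicate 4 at 20.9% against 8.58 to 8.82. In the members' median deviation from group means, replicate 1 at 20.9% lay nearly as far below (-0.22) as replicate 4 above (0.26).

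Between 0 and 20.9% oxygen 19 of the 34 genes had higher and 2 had lower expression with full aeration. Of all genes 50.6% were called in this comparison, 21.9% with higher and 28.6% with lower levels at 20.9%. The median log2 change was 0.54 for the autophagy genes and -0.07 for all genes. In 20 of the 34 the samples of the 2 levels did not overlap, as in 50.7% of all genes. The group mean was highest at 20.9% oxygen in 28 of the 34 genes (82.4%), as in 30.5% of all genes, and it was highest at 0% in 5 and at an intermediate level in 1. In the moderated F test across the 5 levels 21 of the 34 were called, beside 60% of all genes. Without both replicates 4 of 2.8 and 20.9% oxygen 19 genes were called between 0 and 20.9%, all among the 21. With only 0 and 20.9% in the fit 18 were called, again all among the 21. The shares of all genes called in those fits are not given here.

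**Figure D1:**
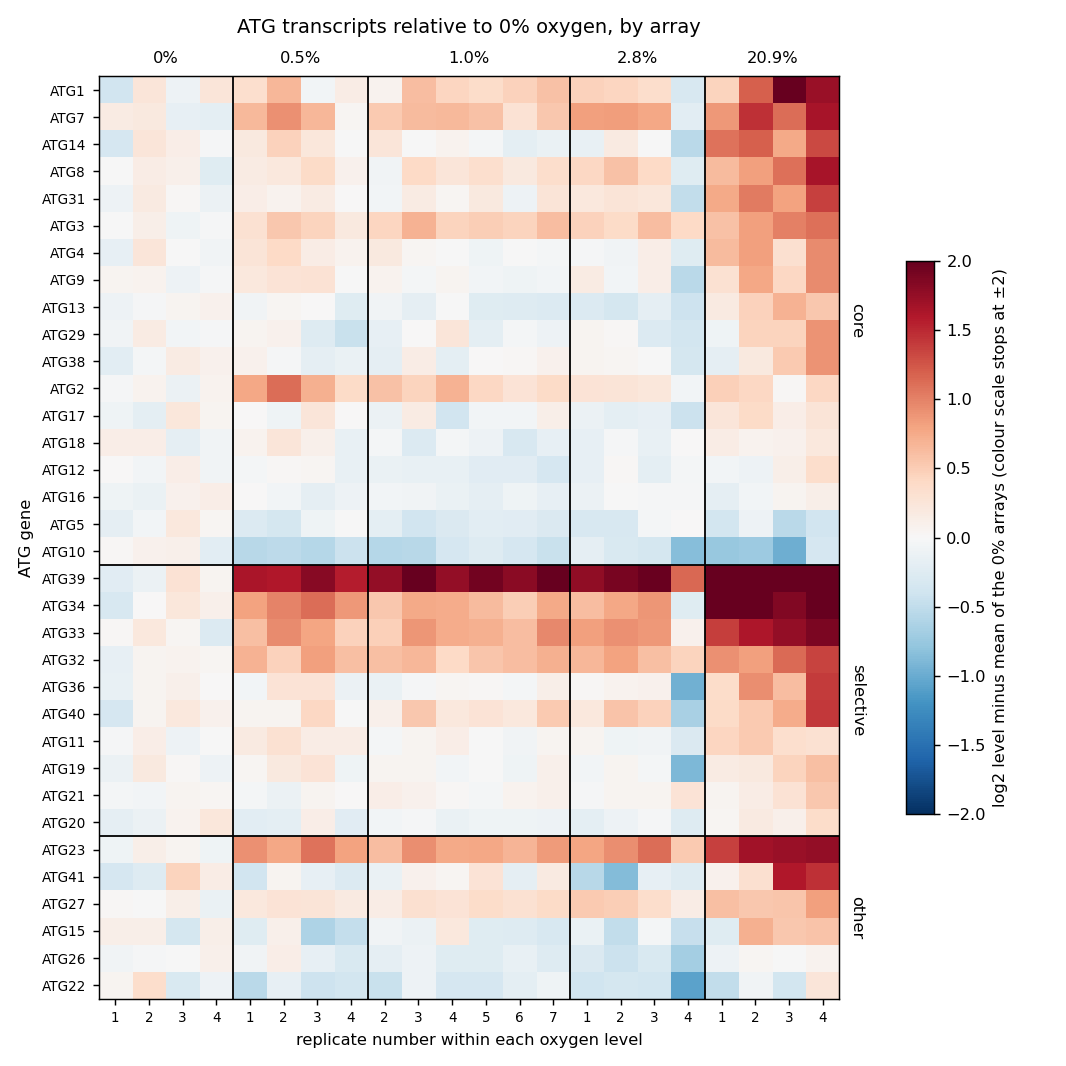
Log2 level of each ATG gene (rows) in each of the 22 arrays (columns, by oxygen level and replicate number), as the difference from the mean of the 4 arrays at 0% oxygen, with the colour scale stopping at 2 in either direction. The 20.9% columns are red for most genes, and the column of replicate 4 at 2.8% is bluer than its neighbours.

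In the median over the 34 genes most of the rise lay in the last step, from the intermediate levels to full aeration. Of the genes that rose at least 2-fold, ATG39, ATG32 and ATG23 had 60.8, 58.4 and 51.2% of their rise before it. Set against the mean of the levels at 0.5, 1.0 and 2.8%, 27 genes were called, all with higher expression at 20.9%, where 47.7% of all genes were called, 21.6% with higher and 26.1% with lower levels. In 13 of the 34 the samples at 20.9% did not overlap with those of the intermediate levels together, as in 24.6% of all genes. From 0% to the same intermediate mean 8 of the 34 genes rose and 2 fell, with 33.1% of all genes called, 15.8% rising and 17.3% falling. Among the intermediate levels themselves 1 of the 34 genes was called between 0.5 and 2.8% (ATG2, lower at 2.8%), where 5.67% of all genes were called and 3.08% were lower at 2.8%. None was called in limma between 0.5 and 1.0% (0.165% of all genes) or between 1.0 and 2.8% (1.71%, with 0.936% lower at 2.8%). At an unadjusted p under 0.05, 4 of the 34 genes differed between 0.5 and 1.0%, beside 710 of all 5449 genes, and 3 between 1.0 and 2.8%, beside 888. With arrays weighted by their quality, 9 of the 34 were called between 0.5 and 1.0%, where that fit called 20.4% of all genes, and 1 between 1.0 and 2.8%, where it called 15.8%. These comparisons share arrays, so their counts are not independent of each other.

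The first step, from 0 to 0.5% oxygen, and the last were compared for selective and core members. Between 0 and 0.5% oxygen 4 of the 10 selective genes were called, all higher at 0.5%. Of the 18 core genes 3 were called, 2 higher and 1 lower. The share of all genes called was 26.9%, with 13.3% higher and 13.6% lower at 0.5%. Over all 34 members the count was 8 between 0 and 0.5%, 9 between 0 and 1.0% (28.6% of all genes) and 7 between 0 and 2.8% (25.7%). The samples did not overlap in 10 of the 34 between 0 and 0.5% (39.3% of all genes) and in 13 between 0 and 1.0% (40.3%). The core count fell to 1 without replicate 3 at 0%, without replicate 1 at 0.5% or without replicate 3 at 0.5%, and the selective count stayed at 4 whichever array was left out. From 0 to 20.9% oxygen 7 of 10 selective genes rose and none fell, with a median log2 change of 0.80. Among the core genes 9 of 18 rose and 2 fell, with a median of 0.45. Beside these, 21.9% of all genes rose and 28.6% fell, with a median of -0.07. In the last step all 10 selective genes and 12 of 18 core genes had higher levels at 20.9%, as did 21.6% of all genes. The medians for the intermediate mean minus 20.9% were -0.51 for selective, -0.48 for core and 0.04 for all genes. Of the 10 selective calls, that of ATG19 was lost in 20, that of ATG21 in 21 and that of ATG40 in 16 of 33 other settings each. Among the 12 core calls, that of ATG38 was lost in 22 of 32 other settings. With ATG38 left out of the core and ATG23 and ATG27 moved to the selective genes, 11 core and 9 selective genes were called between 0 and 20.9%, and 3 and 5 between 0 and 0.5%. Genes are not replicates, and the difference between the classes was not tested.

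**Figure D2:**
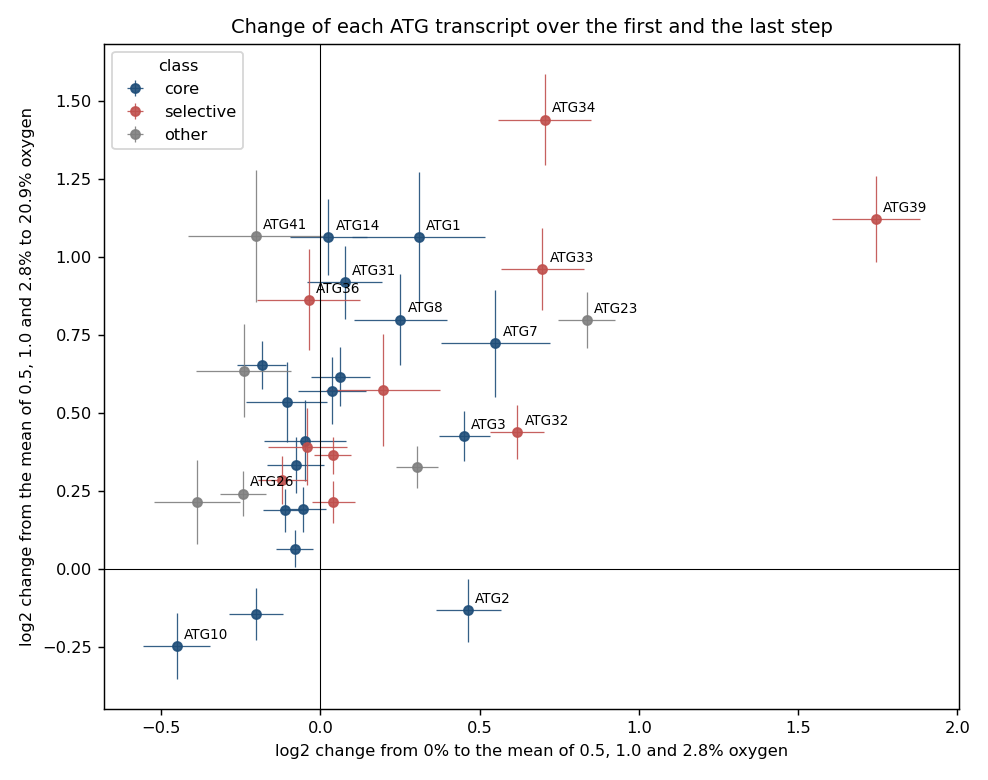
Log2 change of each ATG gene from 0% to the mean of the 3 intermediate levels (horizontal) and from that mean to 20.9% (vertical), with bars of 1 standard error from the limma fit. ATG39 lies farthest right at 1.74, ATG34 highest at 1.44, and ATG14, ATG31 and ATG36 near the vertical line. The axes share the arrays of the intermediate levels.

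Among the receptors of selective autophagy, ATG39 changed most. Atg39 sits in the nuclear envelope and marks parts of the nucleus for breakdown. Its log2 level was 7.47, 7.57, 7.98 and 7.74 in the samples at 0% oxygen and 10.18, 10.42, 10.52 and 11.10 at 20.9%. In between it was 9.33, 9.29, 9.51 and 9.26 at 0.5%, from 9.44 to 9.73 with a median of 9.55 at 1.0%, and 9.46, 9.59, 9.66 and 8.84 at 2.8%. The levels fell into 3 tiers without overlap, namely 0%, the intermediate levels and 20.9%. The log2 change was 2.87 (standard error 0.17, 7.30-fold, adjusted p = 8.4e-12) from 0 to 20.9% and 1.66 (0.17, adjusted p = 1.1e-07) from 0 to 0.5%. Of the whole change 60.8% had taken place by the intermediate levels.

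ATG34 encodes a receptor that carries alpha-mannosidase to the vacuole in starved cells, a paralogue of the Cvt receptor Atg19 whose gene has the neighbouring locus tag. ATG34 was at 9.05, 9.38, 9.60 and 9.47 at 0%, at 10.18, 10.37, 10.49 and 10.24 at 0.5%, and between 9.87 and 10.14 with a median of 10.06 at 1.0% oxygen. It was at 9.99, 10.15, 10.26 and 9.14 at 2.8% and at 11.43, 11.57, 11.22 and 11.85 at 20.9%. Samples at 20.9% lay above all others, and replicate 4 at 2.8% lay within the range of 0%. The rise from 0 to 20.9% was 2.14 on the log2 scale (standard error 0.18, 4.42-fold, adjusted p = 2.2e-09), and that from 0 to 0.5% was 0.95 (0.18, adjusted p = 0.00028), while that from 0 to 2.8% was not called (0.51, adjusted p = 0.032). ATG19 itself went from 9.89 ± 0.14 (SD, n = 4) to 10.24 ± 0.21 and was not called (log2 change 0.35, adjusted p = 0.051 in limma).

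ATG32 and ATG33, which serve mitophagy, the removal of mitochondria, had higher expression at every level with oxygen than without. A further mitophagy gene, ATG44, had no named probe set. ATG32 encodes the receptor on the mitochondrial outer membrane. Its levels were 7.81, 8.03, 8.04 and 8.01 at 0%, 8.66, 8.44, 8.80 and 8.58 at 0.5%, and 8.37 to 8.68 with a median of 8.58 at 1.0% oxygen. They were 8.64, 8.77, 8.57 and 8.41 at 2.8% and 8.89, 8.80, 9.11 and 9.32 at 20.9%. No sample with oxygen reached down to 0%, and the lowest sample at 20.9% equalled the highest at 0.5%. ATG32 rose by 1.06 (standard error 0.11, 2.08-fold, adjusted p = 3.0e-08) from 0 to 20.9%, of which 58.4% lay before the last step. ATG33 encodes another mitochondrial protein that mitophagy needs. It was at 9.25, 9.44, 9.27 and 8.96 at 0%, 9.83, 10.17, 10.02 and 9.69 at 0.5%, and 9.70 to 10.19 with a median of 9.96 at 1.0% oxygen. At 2.8% it was at 10.05, 10.14, 10.09 and 9.31, and at 20.9% at 10.61, 10.85, 10.99 and 11.12. Only replicate 4 at 2.8% fell into the range of 0%, and 20.9% lay above all else. The rise of ATG33 from 0 to 20.9% was 1.66 (0.16, 3.16-fold, adjusted p = 2.1e-08).

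The 2 remaining receptors were called between 0 and 20.9% oxygen but not between 0% and the intermediate mean. ATG36, for peroxisomes, had group means between 7.80 and 8.09 from 0 to 2.8% oxygen and of 8.83 ± 0.45 (SD, n = 4) at 20.9% (log2 change from 0%, 0.83, adjusted p = 0.0013). ATG40, for the endoplasmic reticulum, went from 8.07 ± 0.24 to 8.84 ± 0.46 (0.77, adjusted p = 0.0051 in limma), a call that was lost without replicate 1 at 0%, without replicate 3 at 20.9% or without replicate 4 at 20.9%. The scaffold gene ATG11 rose by 0.40 (standard error 0.07, adjusted p = 8.2e-05). For ATG20, a sorting nexin, and ATG21, a lipid-binding protein of the Cvt pathway, the changes of 0.17 and 0.26 from 0 to 20.9% were not called.

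**Figure D3:**
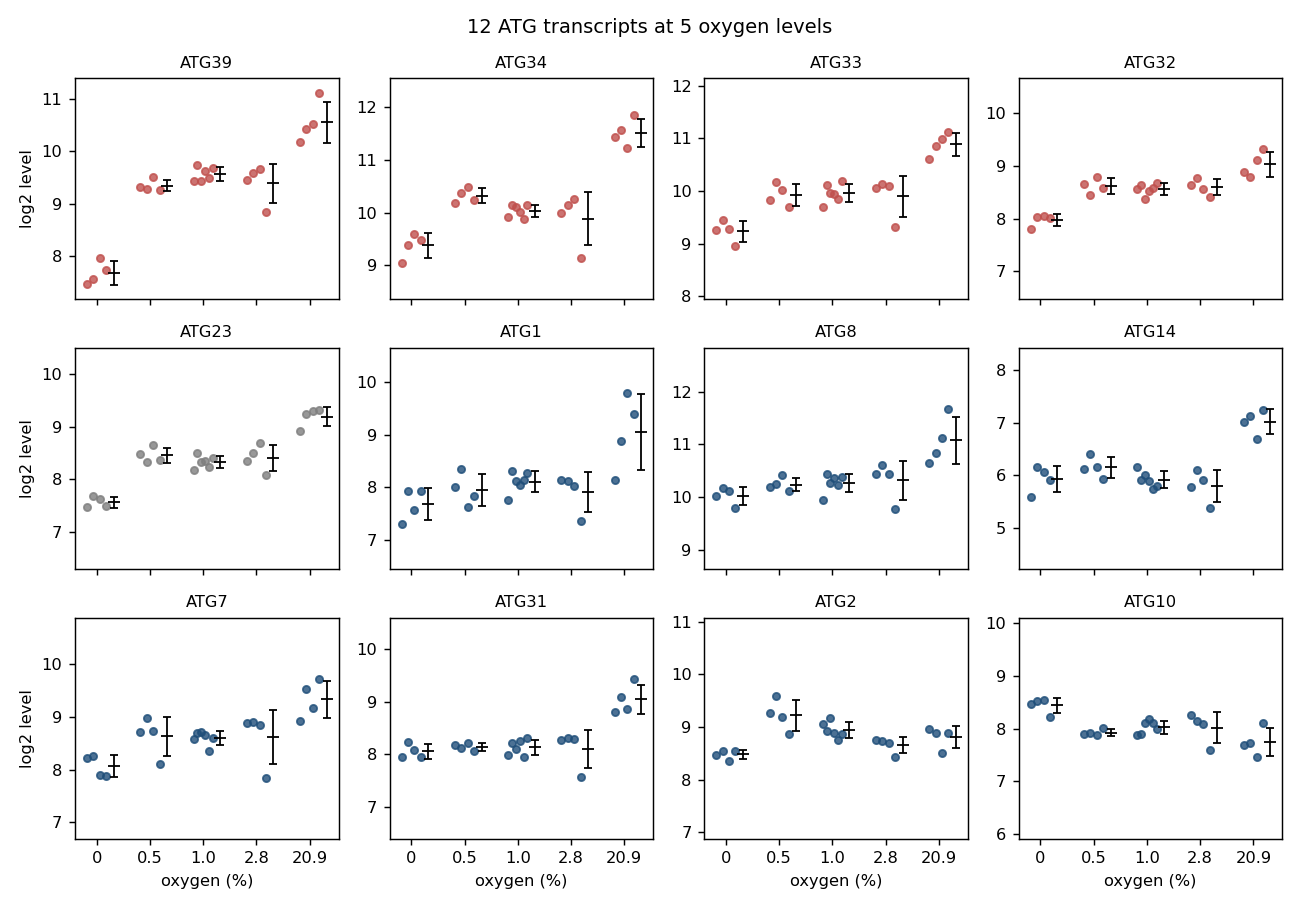
Log2 level of 12 ATG genes against the oxygen content of the feed gas, with 1 point per array and the group mean with 1 SD beside the points (red, selective, grey, other, blue, core). All panels span the same log2 range. ATG39, ATG32 and ATG23 show a step at 0.5% and another at 20.9%, ATG14 and ATG31 a step at 20.9% alone, ATG2 a maximum at 0.5%, and ATG10 a decline.

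In the Atg1 kinase complex, all 5 genes had higher levels at 20.9% than at the mean of the intermediate levels (21.6% of all genes). Of them, 3 were also higher at 20.9% than at 0% (21.9% of all genes). ATG1, the kinase, was at 7.30, 7.92, 7.57 and 7.92 at 0%, at 8.01, 8.34, 7.62 and 7.83 at 0.5%, and between 7.75 and 8.30 with a median of 8.12 at 1.0% oxygen. It was at 8.14, 8.11, 8.03 and 7.35 at 2.8% and at 8.13, 8.88, 9.79 and 9.40 at 20.9%. The spread was widest at 20.9%, where replicate 1 stayed within the range of the intermediate levels but above all samples at 0%. The log2 change of ATG1 from 0 to 20.9% was 1.37 (standard error 0.26, 2.59-fold, adjusted p = 0.00011). ATG31, a subunit of the scaffold that Atg17 organises, rose from 8.05 ± 0.14 to 9.04 ± 0.28 (SD, n = 4), a log2 change of 0.99 (0.15, adjusted p = 5.4e-06), with means of 8.14, 8.13 and 8.10 at the levels between. ATG13, the regulatory subunit, rose by 0.47 (adjusted p = 0.00023). The scaffold genes ATG17 and ATG29 changed by 0.26 and 0.43 without passing the test (adjusted p = 0.052 and 0.024 in limma), and their rise from the intermediate mean to 20.9% was not called without both replicates 4.

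ATG14 encodes the subunit that directs the phosphatidylinositol 3-kinase to autophagosome formation. Its levels were 5.59, 6.17, 6.06 and 5.91 at 0%, 6.12, 6.40, 6.16 and 5.93 at 0.5%, and 5.74 to 6.17 with a median of 5.91 at 1.0% oxygen. At 2.8% they were 5.78, 6.11, 5.92 and 5.39, and at 20.9% 7.02, 7.13, 6.69 and 7.25. The 4 samples at 20.9% lay above all others, and the remaining levels overlapped. ATG14 rose by 1.09 (standard error 0.15, 2.13-fold, adjusted p = 2.8e-06) from 0 to 20.9%, and only 2.28% of this had occurred by the intermediate levels. ATG38, which holds the same kinase complex together, changed by 0.36 from 0 to 20.9% (adjusted p = 0.055 in limma) and was not called. Its rise from the intermediate mean to 20.9% was called, but this call was lost in 22 of 32 other settings.

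Of the genes for membrane supply, ATG9, the lipid scramblase of the Atg9 vesicles, rose by 0.61 (adjusted p = 0.00055), while ATG18, which binds the lipid product of the kinase, was not called (0.14). ATG2, for the protein that moves lipids into the growing membrane, was the 1 member with its highest mean at an intermediate level. Its values were 8.46, 8.55, 8.36 and 8.55 at 0%, 9.26, 9.59, 9.19 and 8.87 at 0.5%, and 8.76 to 9.18 with a median of 8.91 at 1.0% oxygen. They were 8.75, 8.74, 8.70 and 8.43 at 2.8% and 8.96, 8.89, 8.50 and 8.89 at 20.9%. All samples at 0.5 and 1.0% lay above those at 0%, and those at 2.8% lay below those at 0.5%. The log2 change of ATG2 was 0.75 (standard error 0.13, adjusted p = 7.7e-05) from 0 to 0.5% and -0.57 (0.13, adjusted p = 0.0051) from 0.5 to 2.8%, and that from 0 to 20.9% was not called (0.33, adjusted p = 0.029). The decline from 0.5 to 2.8% was not called without the directly centrifuged samples, nor without replicate 1, 2 or 3 at 0.5% or replicate 3 or 4 at 2.8%.

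The conjugation genes moved in both directions, 4 of the 8 up and 2 down between 0 and 20.9% oxygen. In this comparison 21.9% of all genes were called higher and 28.6% lower. The share of conjugation genes that fell was thus close to that of all genes. ATG8 encodes the ubiquitin-like protein of the membrane. It was at 10.02, 10.17, 10.12 and 9.79 at 0%, 10.19, 10.24, 10.41 and 10.11 at 0.5%, and 9.95 to 10.43 with a median of 10.31 at 1.0% oxygen. At 2.8% it was at 10.44, 10.61, 10.43 and 9.78, and at 20.9% at 10.65, 10.84, 11.13 and 11.68. Samples at 20.9% lay above all others by a narrow margin, with replicate 4 highest. ATG8 rose by 1.05 (standard error 0.18, 2.07-fold, adjusted p = 4.1e-05). ATG7, the E1 enzyme that activates both Atg8 and Atg12, was at 8.23, 8.26, 7.90 and 7.88 at 0%, 8.71, 8.98, 8.73 and 8.10 at 0.5%, and 8.36 to 8.71 with a median of 8.63 at 1.0% oxygen. It was at 8.89, 8.91, 8.84 and 7.85 at 2.8% and at 8.93, 9.53, 9.18 and 9.72 at 20.9%. Replicates 4 of 0.5 and 2.8% did not exceed the highest sample at 0%, and the lowest sample at 20.9% lay just below the highest at 0.5%. ATG7 rose by 1.27 (0.21, 2.42-fold, adjusted p = 2.8e-05) from 0 to 20.9%.

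The E2 enzymes of the conjugation systems went in opposite directions. ATG3, the E2 for Atg8, rose from 8.16 ± 0.09 to 9.04 ± 0.23 (SD, n = 4) with a log2 change of 0.88 (adjusted p = 1.8e-07) and was already 0.37 higher at 0.5% than at 0% (adjusted p = 0.0060 in limma), a call lost without any one of 6 arrays (replicate 1, 3 or 4 at 0%, or replicate 1, 2 or 3 at 0.5%). ATG10, the E2 for Atg12, had its highest level without oxygen, at 8.46, 8.53, 8.55 and 8.23, against 7.89, 7.92, 7.88 and 8.01 at 0.5% and 7.69, 7.72, 7.46 and 8.11 at 20.9%. At 1.0% it was between 7.88 and 8.18 with a median of 8.04, and at 2.8% it was 8.26, 8.14, 8.09 and 7.59. No sample of ATG10 at 0.5, 1.0 or 20.9% reached those at 0%, whereas replicate 1 at 2.8% did, and the change from 0 to 2.8% was not called (-0.42, adjusted p = 0.014 in limma). Its log2 change was -0.52 (standard error 0.13, adjusted p = 0.0035) from 0 to 0.5% and -0.70 (0.13, adjusted p = 9.7e-05) from 0 to 20.9%. The first of these was lost without replicate 2 or 3 at 0% or without replicate 1 or 3 at 0.5%. ATG4, the protease that trims Atg8 and frees it from the membrane, rose by 0.68 (adjusted p = 3.7e-05). ATG5, a part of the Atg12 conjugate, fell by 0.35 on the log2 scale (adjusted p = 0.0063), a call lost without replicate 3 or 4 at 0% or without replicate 1, 3 or 4 at 20.9%. ATG12 (0.08) and ATG16 (-0.02) were not called, and the signal of ATG16 lay at percentile 0.734 of the mean levels of all genes, where little change can be seen.

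Among the genes with other roles, those for the traffic of Atg9 vesicles all rose between 0 and 20.9% oxygen, as did 21.9% of all genes. ATG23 was at 7.47, 7.67, 7.62 and 7.48 at 0%, 8.48, 8.33, 8.65 and 8.36 at 0.5%, and 8.18 to 8.49 with a median of 8.33 at 1.0% oxygen. It was at 8.35, 8.49, 8.68 and 8.08 at 2.8% and at 8.92, 9.24, 9.29 and 9.31 at 20.9%. As for ATG39, 0%, the intermediate levels and 20.9% formed 3 tiers that did not overlap. The rise of ATG23 was 1.63 (standard error 0.11, 3.10-fold, adjusted p = 7.6e-11), 51.2% of it before the last step. ATG27 rose by 0.63 (adjusted p = 1.4e-06) and ATG41 by 0.86 (adjusted p = 0.0074 in limma). The 4 samples of ATG41 at 20.9% were far apart, at 10.23, 10.46, 11.75 and 11.61, and its call was lost without replicate 3 or 4 at that level or without replicate 1, 2 or 4 at 0%.

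ATG26, a sterol glucosyltransferase that is needed for peroxisome turnover in the yeast Komagataella pastoris, was the 1 member with a dip, an intermediate mean called lower than both 0 and 20.9%, as found for 2.81% of all genes. The lowest group mean lay at an intermediate level in 19 of the 34 genes, beside 2021 of all 5449 genes, without such calls in the other ATG genes. None of the 34 had a peak, an intermediate mean called higher than both ends in limma, as found for 5.29% of all genes. At an unadjusted p under 0.05 none had a peak either, and the share of all genes at that threshold is not given here. ATG26 was at 9.55, 9.59, 9.61 and 9.71 at 0%, 9.55, 9.75, 9.45 and 9.31 at 0.5%, and 9.35 to 9.52 with a median of 9.40 at 1.0% oxygen. It was at 9.33, 9.19, 9.31 and 8.93 at 2.8% and at 9.51, 9.66, 9.60 and 9.68 at 20.9%. Samples at 2.8% lay below both ends, and those at 0.5% overlapped with them. The intermediate mean of ATG26 was 0.24 lower than 0% (adjusted p = 0.0093) and 0.24 lower than 20.9% (adjusted p = 0.0069 in limma). The first of these calls was lost in 19 and the second in 9 of 33 other settings. ATG15, the lipase that opens the membrane inside the vacuole, and ATG22, an exporter of amino acids from the vacuole, changed by 0.40 and -0.17 from 0 to 20.9% and were not called. The rise of ATG15 from the intermediate mean to 20.9% was called, and this call was kept in all 32 other settings.

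Over the 22 arrays 483 of the 561 pairs of members had a positive correlation, with a median r of 0.528. The most alike were ATG23 and ATG39 (0.956), ATG32 and ATG39 (0.956) and ATG4 and ATG14 (0.954). The arrays share conditions and cultures, so that these values describe the profiles and have no test.

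Genes that work with the ATG products are given here by group. Of all genes 21.9% were called higher and 28.6% lower at 20.9 than at 0% oxygen. Of 4 partners, 3 were higher at 20.9 than at 0% oxygen, namely SNX4, the sorting nexin that pairs with Atg20 (0.84), VPS30, a subunit of the lipid kinase complex (0.44), and the kinase VPS34 (0.28), while VPS15 was not called (0.03). Of 7 vacuolar hydrolases 5 rose, with CPS1 (0.96), the proteinase B gene PRB1 (0.84) and PRC1 (0.75) changing most, whereas PEP4, the proteinase that activates the others, was not called (0.17). The Cvt cargoes AMS1, the alpha-mannosidase, and APE4 rose by 0.77 and 0.49, and APE1 changed by -0.36 without passing the test.

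The 13 genes for fusion with the vacuole had a median change of -0.24 between 0 and 20.9% oxygen. Of these, 1 was higher (VTI1, 0.74) and 5 lower, among them the tethering gene PEP5 (-0.51) and the GTPase gene YPT7 (-0.48). Of all genes 50.6% were called in this comparison, 21.9% higher and 28.6% lower, and the share of fusion genes called was close to that. Of 7 genes for the nutrient-sensing kinase TORC1 and its effectors, 1 was called, KOG1 (-0.28). Of 5 repressors of ATG transcription, PHO23 (0.65) and UME6 (0.53) rose and RPD3 (-0.25) and SIN3 (-0.20) fell. Of the membrane traffic genes TRS85 and YPT1, TRS85 fell by 0.53 on the log2 scale.

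The mean level of transcripts of the general stress response was also highest at 20.9% oxygen. Of 18 such genes 16 were higher and 1 lower (HXK1) at 20.9 than at 0% oxygen, with a median log2 change of 1.24. Of all genes 21.9% were higher and 28.6% lower in this comparison. Between 0 and 0.5% the median change of the stress genes was 0.70, with 9 higher (13.3% of all genes). That of the 34 autophagy genes was 0.10. Between 0.5 and 2.8% the median of the stress genes was -0.71, with 4 lower (3.08% of all genes), against -0.04 for the autophagy genes. The mean level of the stress genes was 10.11 to 10.33 at 0%, 10.69 to 11.13 at 0.5%, 10.64 to 10.99 at 1.0% and 11.94 to 12.41 at 20.9%. At 2.8% it was 9.63 in replicate 4 and 10.39 to 10.56 in the other samples, and the mean over the 18 core ATG genes was 7.38 in replicate 4 and 7.73 to 7.74 in the others. The mean over the 10 selective genes was 8.46 against 8.98 to 9.09. The part of the stress response in the changes of the ATG genes was not tested.

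**Figure D4:**
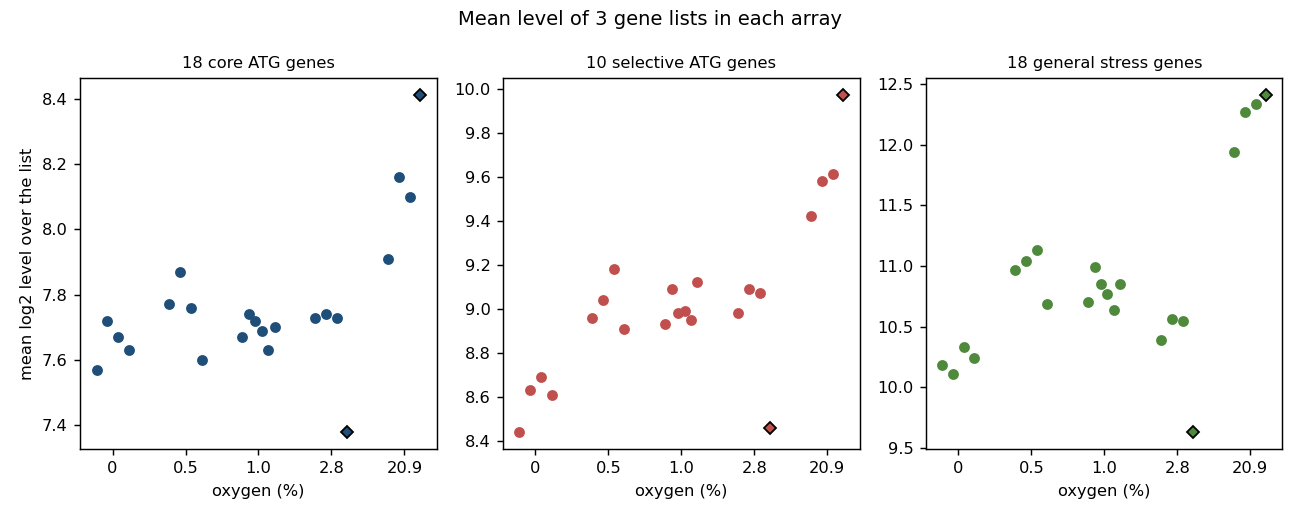
Mean log2 level over 18 core ATG genes, 10 selective ATG genes and 18 general stress genes in each array, against the oxygen content of the feed gas, with replicates 4 of 2.8 and 20.9% drawn as diamonds. Means over both ATG classes were highest at 20.9%, and replicate 4 at 2.8% lay below the other samples at its level in all 3 panels.

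Between 2.8 and 20.9% oxygen, the last pair of neighbouring levels, the count depended on the arrays used. All 23 genes called there were higher at 20.9%, among them 11 core and 8 selective genes, beside 40.5% of all genes called in either direction and 18.6% higher. Samples of these 2 levels did not overlap in 21 of the 34, as in 39.5% of all genes. Without replicate 4 at 2.8% 20 genes were called, without both replicates 4 of these levels 15, and without the directly centrifuged samples 13. The shares of all genes called in these smaller fits are not given here, so the fall cannot be read as particular to the ATG genes. In the fit without both replicates 4, 14 of the 15 were among the 23, and the other was ATG10, lower at 20.9%. Between 0.5 and 20.9% 19 genes were called, all higher at 20.9%, where 35.2% of all genes were called and 15.9% were higher, and the samples did not overlap in 16 (38.6% of all genes). Between 1.0 and 20.9% it was 21, again all higher, beside 42.7% of all genes called and 19.4% higher, with 19 not overlapping (42.1% of all genes).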

How the data were processed

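Intensities on the log2 scale were used as the authors deposited them in the series table, after RMA, which subtracts background, makes the arrays' distributions equal by quantiles and summarises each probe set. The table held 5716 probe sets in 22 arrays, with array medians between 9.036 and 9.099. Of these, 5498 were named for 1 gene through GEO's platform annotation and the RefSeq gene table of strain S288C (R64), which updated 12 symbols, and 218 were left out. Where a gene had several probe sets, one specific to its transcript was taken first and then the brightest. The number of arrays at a level limits how small a change can be seen.

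Oxygen levels were compared with limma 3.58.1 in R 4.3.3, in 1 fit of 5 groups with moderated variances, a moderated F test and contrasts, with Benjamini-Hochberg adjustment over 5449 genes. The package and the threshold of 0.01 follow the study's methods. The script was tested on simulated data. The ATG genes, their classes and the other gene lists were chosen with earlier results of these data known. Values of every level were given for genes called between 0 and 20.9% with a change of at least 2-fold, for those called between intermediate levels and for those whose intermediate mean was called below, or above, both 0 and 20.9%. ATG10, and ATG41 in part, were chosen after their values were seen. No promoter or protein sequence was used here. Alternatives were other probe set rules, no dim genes, 2 further normalisations, other variance models, array weights, fits of only 2 levels, a block for the replicate number, another threshold, and fits without the directly centrifuged samples or without each array. The fit without both replicates 4 was chosen after seeing the data. The background correction could not be changed, since the scanner files were not used here. Tables and figures were made with Python 3.11.15, pandas 2.3.3, NumPy 2.4.6 and Matplotlib 3.10.9.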

Additional observations from a re-analysis of the deposited data

Results flagged for a closer look

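Of 170 groups of samples examined, 1 for each ATG gene and oxygen level, 16 held a sample farther from the rest than the critical value of Dixon's test. Chance alone puts about 1 in 20 groups past it. Replicate 4 at 2.8% oxygen was the lowest sample in 9 of them. It was at 7.35 for ATG1 (others from 8.03), 7.85 for ATG7 (8.84), 7.56 for ATG31 (8.26), 7.29 for ATG38 (7.63) and 8.43 for ATG2 (8.70). For the selective genes it was at 9.31 for ATG33 (10.05), 7.04 for ATG36 (8.02) and 8.99 for ATG19 (9.83), and for ATG22 at 8.12 (8.79). The labels describe direct centrifugation for this sample and for replicate 2, which did not stand apart in these genes. The remaining ones had no array in common beyond replicate 3 at 0.5%, where ATG20 was at 7.80 and ATG40 at 8.49, both the highest. Lowest in their groups were ATG15 at 6.80 in replicate 3 at 0% and at 6.91 in replicate 1 at 20.9%, ATG2 at 8.50 in replicate 3 at 20.9%, ATG32 at 7.81 in replicate 1 at 0%, and ATG7 at 8.36 in replicate 6 at 1.0%.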

How the results depend on the processing

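Of 90 called log2 changes of single ATG genes, 59 kept their direction and call in every alternative that was run, and none of the 90 reversed. With 1 array left out at a time, the number of ATG genes called was 20 to 25 in the F test, 18 to 24 between 0 and 20.9% oxygen, 6 to 9 between 0 and 0.5%, 0 to 2 between 0.5 and 2.8% and 18 to 24 between 2.8 and 20.9%, and 0 in the other pairs of intermediate levels. Core genes called between 0 and 20.9% were 10 to 12 and selective genes 6 to 9, and between 0 and 0.5% core genes were 1 to 4 and selective genes 4 in each fit. Between 0.5 and 2.8% oxygen the 1 gene became 2 without dim genes, 7 with array weights (31.9% of all genes in that fit) and 3 at a threshold of 0.05, and 0 with only these levels in the fit, without the directly centrifuged samples, and without both replicates 4. Array weights gave 9 genes instead of 0 between 0.5 and 1.0% and 1 instead of 0 between 1.0 and 2.8%, with a weight of 0.133 for replicate 4 at 2.8% and 7.32 for replicate 1 at 0.5%. Between 2.8 and 20.9% the 23 genes became 10 with only these levels in the fit, 13 without the directly centrifuged samples and 15 without both replicates 4. Apart from those with array weights, the shares of all genes called in these fits are not given here. The cause of these shifts was not tested.

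The deviations of samples with the same replicate number had a median correlation of 0.0508 over 36 pairs, from -0.595 to 0.581. For samples with different numbers the median was -0.00733 over 156 pairs, from -0.599 to 0.639. Whether single samples of the same number belong together cannot be told from these medians. With the replicate number as a block, 0 genes were called between 0.5 and 2.8% and 1 core gene instead of 3 between 0 and 0.5%. The block gave 20 genes in the F test, 19 between 0 and 20.9%, 6 between 0 and 0.5% and 19 between 2.8 and 20.9%. The shares of all genes called with the block are not given here. Both further normalisations moved the median change of all genes between 0 and 20.9% by less than 0.1. The number of cultivations behind the samples, and the dim signal of genes such as ATG16, limit what could be seen.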
